A study of Mus musculus with 9 samples.

Results

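C-type lectin receptors of myeloid cells were followed through RNA-seq of mouse bone marrow (BM)-derived Mϕs. The 10 members were found by gene symbol in the deposited table of 53379 genes, and are Mrc1, Mgl2, Clec10a, Clec7a, Clec4d, Clec4e, Clec4n, Clec4a1, Clec4a2 and Clec12a. BM cells of C57BL/6 mice grew for 3 days in 10 ng/ml CSF-1, the growth factor of the Mϕ lineage, and then for 4 days in CSF-1 alone (control), CSF-1 with 10 ng/ml IL-4, or CSF-1 with 100 ng/ml IL-6, as the labels give the doses. The study's methods give the same times and IL-6 dose but a higher dose of IL-4, and its legends give other doses and a shorter time. The headers of the deposited columns also give 4 days, so the legends alone differ in time, and the doses are not settled. Each condition has 3 libraries, numbered #1 to #3. The comparison asks how IL-6 changes Mϕs beside IL-4, the cytokine used as the reference for alternative activation.

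C-type lectin receptors are surface proteins that bind sugars and lipids of fungi, bacteria, helminths and dying host cells. Mannose- and galactose-binding members take up their ligands for degradation and presentation. Dectin-1 (Clec7a) signals through a tyrosine motif in its own tail. Mincle (Clec4e), MCL (Clec4d) and Dectin-2 (Clec4n) depend on the adaptor FcRγ (Fcer1g), and all of these routes lead through the kinase Syk to CARD9 and NF-κB. DCIR (Clec4a2) and MICL (Clec12a) carry an immunoreceptor tyrosine-based inhibition motif (ITIM) and recruit phosphatases that restrain such signals. CD206 (Mrc1) and CD301b (Mgl2) are surface markers widely used for IL-4-activated Mϕs.

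Values are FPKM, fragments per kilobase of exon per 1000000 fragments, and the libraries held 29988160 to 39909571 fragments. The limma test was run on log2(FPKM + 0.1) of the 12824 genes that averaged 0.5 FPKM or more, and all log2 fold changes and Benjamini-Hochberg adjusted p-values below come from that fit. Genes count as called where the adjusted p was below 0.05 and the log2 fold change was 1 or more in either direction. The study's legends give 3 mice for this RNA-seq, but do not say how libraries, cultures and mice correspond. P-values measure only the spread between these libraries. With 3 libraries against 3, a two-sided exact permutation test of 1 gene gives no p below 0.1. Arg1 rose by a log2 fold change of 10.58 with IL-4, and Socs3 by 5.12 with IL-6, which checks the treatments. Of the 7 Mϕ marker genes, including Csf1r, Adgre1 and Cd68, none was at 0, and their summed FPKM ranged from 1366 to 2822 over the libraries. The libraries also divide by traces of intestinal Paneth and goblet cell transcripts (14 genes), with 0.0990 to 0.245 of their fragments per 1000000 in IL-4 #2 and #3 and the IL-6 libraries, and 22.4 to 32.0 in the control libraries and IL-4 #1. IL-6 and control therefore share no set of libraries, and the treatment and the set cannot be told apart in that comparison except by way of the IL-4 libraries. IL-4 #3 stood apart from IL-4 #1 and #2 in several members. The values without it are given for Mrc1, Clec10a, Clec7a and Clec4a2, for Clec4d and Clec4a1 with IL-6, and for Clec12a with IL-4.

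All 10 members were measured in every library, with at least 159 fragments each. The members were chosen with earlier results of these data known, so the shares of all genes beside their counts give a scale and no test. Of the 10, 7 were called between IL-4 and control, where 13.9% of all tested genes were called. Mgl2 and Mrc1 were higher (5.02% of all genes were called higher), and Clec4d, Clec4e, Clec4n, Clec4a1 and Clec12a were lower (8.89%). Between IL-6 and control, 5 were called against 5.38% of all genes. Clec4e and Clec4n were higher (3.49%), and Mgl2, Clec10a and Clec7a were lower (1.89%). IL-6 set directly against IL-4 called 7 members, against 20.4% of all genes. Clec4d, Clec4e, Clec4n and Clec4a1 were higher with IL-6 (13.6%), and Mgl2, Clec10a and Clec7a were higher with IL-4 (6.82% of all genes were called lower with IL-6). Without IL-4 #3 the counts were 8, 5 and 8, with Clec7a added for IL-4 and Mrc1 for IL-6 against IL-4. Over the 10 members the median log2 fold change was −0.80 for IL-4, 0.22 for IL-6 and −0.04 for IL-6 against IL-4, beside −0.20, −0.00 and 0.22 over all tested genes. The comparisons with control share the control libraries, so their values are not independent. In bulk RNA, fewer cells of a type and less RNA per cell cannot be told apart.

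**Figure D1:**
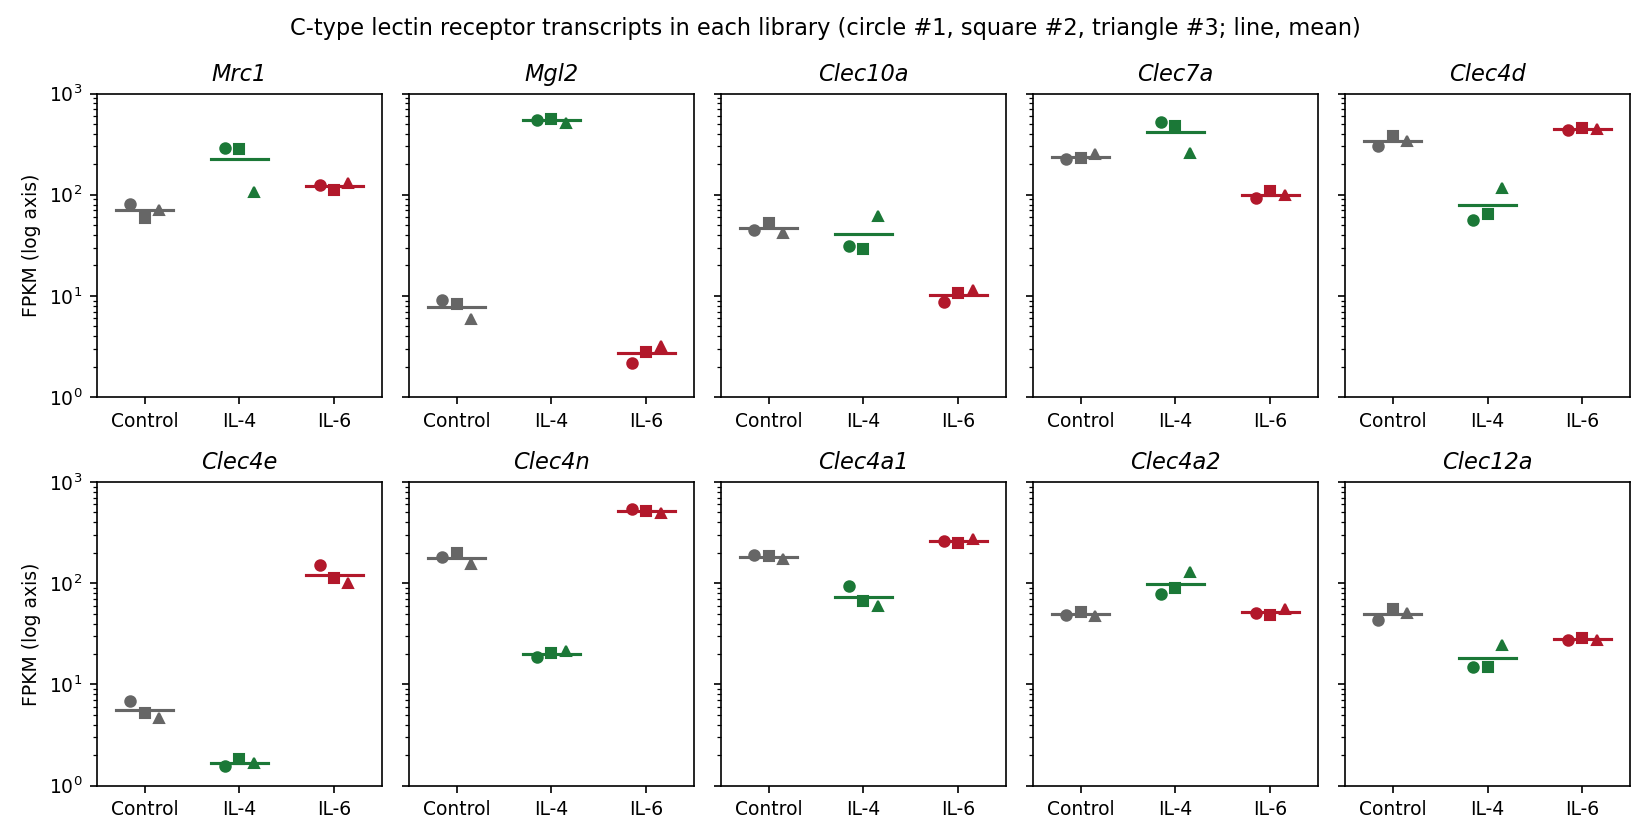
FPKM of the 10 receptors in each library (y axis, log scale), with control in grey, IL-4 in green and IL-6 in red, 3 libraries each (circle #1, square #2, triangle #3) and lines at the group means. Mgl2 lay above 516 FPKM in the IL-4 libraries and below 9.1 in all others, and Clec4e lay above 99 FPKM in the IL-6 libraries and below 6.8 in all others.

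The order of the receptors by level differed between conditions. In control Mϕs, Clec4d (343 FPKM) and Clec7a (235) stood above Clec4a1 (183) and Clec4n (178), whose ranges overlapped. Mrc1 (70.1) came next, ahead of Clec12a (49.9), Clec4a2 (49.2) and Clec10a (46.5), where neighbours in that order overlapped. Mgl2 (7.74) and Clec4e (5.53) were lowest and overlapped. With IL-4, Mgl2 led with a mean of 544 FPKM, and Clec7a (417) and Mrc1 (226) followed, although their library ranges overlapped. With IL-6, Clec4n (517), Clec4d (443) and Clec4a1 (262) led in that order, each apart from the next. By mean level among all genes of the table, Mgl2 ranked 78 with IL-4, 4983 in control and 8564 with IL-6. Clec4n ranked 61 with IL-6, 233 in control and 2240 with IL-4, and Clec4e ranked 353, 6156 and 9308 in the same order.

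Mgl2 and Clec10a encode CD301b and CD301a, lectins that bind terminal galactose and N-acetylgalactosamine. They are neighbours on chromosome 11 of GRCm38 (Mgl2, ENSMUSG00000040950.13, at chr11:70130329-70137550, Clec10a, ENSMUSG00000000318.16, at chr11:70156197-70170834, both on the plus strand), within 40.5 kb. Their coding sequences were identical at 91.03% of 925 aligned bases (842 bases). The longest run that they share is 183 bases, over exons 7 to 9 of Mgl2 (chr11:70136337-70136699) and exons 6 to 8 of Clec10a (chr11:70169822-70170189) of the GENCODE M21 transcripts. It is shown because a read that falls wholly in it belongs to either gene. Stretches of 50 bases found also in another gene made up 13.1% of those of Mgl2 and 9.02% of those of Clec10a, mostly in each other, so a share of their fragments may be assigned to the wrong gene.
Mgl2 and Clec10a, shared run: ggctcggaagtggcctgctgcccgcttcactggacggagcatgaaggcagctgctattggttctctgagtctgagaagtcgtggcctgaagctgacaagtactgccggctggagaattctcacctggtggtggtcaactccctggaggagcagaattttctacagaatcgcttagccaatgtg

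Mgl2 rose with IL-4 and fell with IL-6. Its FPKM were 9.04, 8.31 and 5.85 in Control #1 to #3, 550.5, 566 and 516 in IL-4 #1 to #3, and 2.18, 2.81 and 3.17 in IL-6 #1 to #3. Every IL-4 library lay far above the controls, every IL-6 library lay below them, and no groups overlapped. Mean Mgl2 was 70.3-fold higher with IL-4 (log2 fold change 6.14, standard error 0.193, adjusted p = 1.89e-06), the largest change against control among the members. With IL-6 it was 2.85-fold lower than control (log2 fold change −1.47, standard error 0.193, adjusted p = 0.00316). Once the fit had a term for the set of libraries, the IL-6 value was −1.44 and no longer called (adjusted p = 0.124). The direct comparison gave a log2 fold change of −7.61 for IL-6 against IL-4 (adjusted p = 2.94e-07), from 159 to 204 fragments in the IL-6 libraries and 35916 to 43140 in the IL-4 libraries. The 4 mast cell and basophil markers rose with Mgl2 under IL-4: all 4 were called higher, beside 5.02% of all genes. With IL-6 none of the 4 was called against control by limma or voom, beside 5.38% of all genes. There, 0 of the 4 had an unadjusted limma p under 0.05. Their summed FPKM were 28.8 to 46.4 with IL-4, against 5.31 to 11.5 in control and 2.78 to 8.69 with IL-6. None of them was at 0, and their part in the result was not tested.

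Clec10a fell with IL-6 and was not called with IL-4. Its FPKM were 44.4, 52.8 and 42.1 in Control #1 to #3, 31.3, 29.2 and 62.1 under IL-4, and 8.64, 10.7 and 11.5 under IL-6. IL-4 #1 and #2 lay below the controls and IL-4 #3 above them, while all IL-6 libraries lay below every other library. The log2 fold change with IL-4 was −0.27 (95% interval −0.91 to 0.38, adjusted p = 0.523), and −0.61 without IL-4 #3 (adjusted p = 0.0124), which is under the fold threshold. With IL-6 Clec10a was 4.51-fold lower than control (log2 fold change −2.16, standard error 0.280, adjusted p = 0.00299). With the set as a term that value was −2.61 (adjusted p = 0.0600). It was also 3.97-fold lower with IL-6 than with IL-4 (adjusted p = 0.00137). Within each library, which cancels its scaling, the ratio of Mgl2 to Clec10a was 0.139 to 0.204 in control, 8.31 to 19.4 under IL-4 and 0.252 to 0.275 under IL-6. The lowest IL-4 ratio, 8.31, was that of IL-4 #3.

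Mrc1 encodes CD206, the macrophage mannose receptor, whose coding sequence of 4371 bases is the longest of the 10 (ENSMUSG00000026712.3, chr2:14229392-14332057, plus strand). Its FPKM were 80.8, 59.0 and 70.5 in control, 288, 283 and 106 under IL-4, and 126, 112 and 130 under IL-6. IL-4 #1 and #2 lay far above the IL-6 libraries and IL-4 #3 just below them, and every treated library lay above the controls. The mean rose 3.22-fold with IL-4 (log2 fold change 1.56, standard error 0.360, adjusted p = 0.0152). Mrc1 stayed called in 6 of the 9 fits that left out 1 library. In the other 3 the adjusted p was 0.0568 without Control #2, 0.0505 without Control #3 and 0.0513 without IL-4 #2, and it was 0.0591 where only the control and IL-4 libraries were fitted. Leaving out IL-4 #3 gave 2.04 (adjusted p = 2.77e-05), and Mrc1 was then also lower with IL-6 than with IL-4 (log2 fold change −1.22, adjusted p = 0.000271), a difference of −0.74 that was not called with all libraries (adjusted p = 0.138). Against control, Mrc1 with IL-6 had a log2 fold change of 0.82 (95% interval −0.01 to 1.64, adjusted p = 0.243). Without IL-4 #3 the 0.82 had an adjusted p of 0.0028, still under the fold threshold. Where only the control and IL-6 libraries were fitted, its adjusted p was 0.00698. With the set as a term the value was 1.55 (adjusted p = 0.247).

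**Figure D2:**
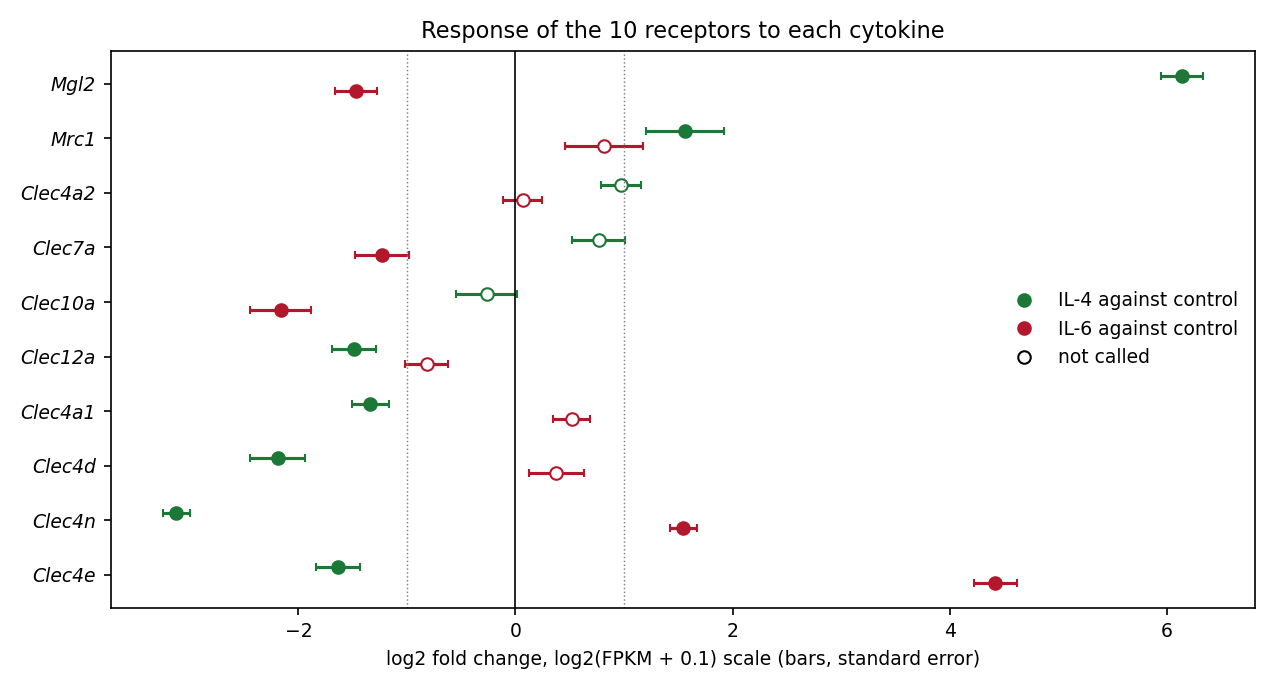
Log2 fold change of each receptor (x axis, log2(FPKM + 0.1) scale) for IL-4 (green) and IL-6 (red) against control, with bars of 1 standard error, filled where called, and dotted lines at the threshold of 1. Mgl2 with IL-4 (6.14) and Clec4e with IL-6 (4.42) lie farthest to the right, and Clec4n with IL-4 (−3.13) farthest to the left.

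Clec7a encodes Dectin-1, the receptor for fungal β-glucan, and had its highest mean with IL-4 and its lowest with IL-6. The gene (ENSMUSG00000079293.11) lies at chr6:129461591-129472779 on the minus strand. M21 lists it as a polymorphic pseudogene, though the transcript read here holds a coding sequence of 735 bases with start and stop codons. Its FPKM were 224, 229.6 and 250.7 in control, 520.4, 473 and 258 under IL-4, and 92.5, 108 and 100.2 under IL-6. IL-4 #3 lay only just above the highest control, while the IL-6 libraries lay well below every other. With IL-4 the log2 fold change was 0.77 (adjusted p = 0.0549), and without IL-4 #3 it was 1.08 and called (adjusted p = 0.000139). With IL-6 Clec7a was 2.34-fold lower than control (log2 fold change −1.23, standard error 0.246, adjusted p = 0.0201). That call was lost without Control #1, #2 or #3 or IL-6 #1, #2 or #3, with adjusted p of 0.0584 to 0.0911 and log2 fold changes of −1.28 to −1.17. A term for the set also ended it (log2 fold change −0.65, adjusted p = 0.317). The difference between the cytokines was 4.16-fold (log2 fold change −1.995 for IL-6 against IL-4, adjusted p = 0.000554), and it was called without each library in turn.

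Mincle, MCL and Dectin-2, the receptors coupled to FcRγ, were lower with IL-4, and Mincle and Dectin-2 were higher with IL-6. Mincle binds glycolipids of mycobacteria and SAP130 of dying cells, MCL partners with it, and Dectin-2 binds fungal mannans. Their genes Clec4n, Clec4d and Clec4e lie side by side on chromosome 6 and share 63.68% (Clec4d with Clec4e), 65.45% (Clec4d with Clec4n) and 66.2% (Clec4e with Clec4n) of their aligned coding bases. No stretch of 50 bases of Clec4d or Clec4e occurs in another gene, and 0.686% of those of Clec4n do.

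Clec4e (Mincle, ENSMUSG00000030142.10, chr6:123281789-123289870, minus strand) had 6.79, 5.16 and 4.65 FPKM in control, 1.56, 1.83 and 1.69 under IL-4, and 153, 111 and 99.4 under IL-6. The groups did not overlap, and the IL-6 libraries stood more than an order of magnitude above all others. The mean was 21.9-fold higher with IL-6 than in control (log2 fold change 4.42, standard error 0.1995, adjusted p = 1.92e-05), and 4.25 where the set was a term (adjusted p = 0.00468). With IL-4 it was 3.27-fold lower (log2 fold change −1.64, standard error 0.1995, adjusted p = 0.000705), on 264 to 335 fragments a library. The cytokines differed 71.6-fold (log2 fold change 6.06, adjusted p = 8.73e-07).

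Clec4n (Dectin-2, ENSMUSG00000023349.14, chr6:123229843-123247021, plus strand) had 181, 198 and 155 FPKM in control, 18.7, 20.5 and 21.4 under IL-4, and 544, 513 and 494 under IL-6. The values within each condition lay close together and the conditions were far apart. Clec4n was 8.81-fold lower with IL-4 (log2 fold change −3.13, standard error 0.125, adjusted p = 2.69e-06) and 2.91-fold higher with IL-6 (log2 fold change 1.54, standard error 0.125, adjusted p = 0.000278). With the set as a term the IL-6 value was 1.39 (adjusted p = 0.0371). The direct difference was 25.6-fold (adjusted p = 2.94e-07).

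Clec4d (MCL, ENSMUSG00000030144.4, chr6:123262111-123275265, plus strand) had 302, 383 and 343 FPKM in control, 56.3, 63.8 and 115 under IL-4, and 434, 452 and 444 under IL-6. IL-4 #3 was the highest of its group, and all IL-4 libraries lay below the controls. Clec4d was 4.37-fold lower with IL-4 (log2 fold change −2.19, standard error 0.251, adjusted p = 0.000505). It was not called with IL-6 (log2 fold change 0.38, 95% interval −0.20 to 0.95, adjusted p = 0.464), and the value was −0.23 with the set as a term (adjusted p = 0.693). Without IL-4 #3 the 0.38 had an adjusted p of 0.0345, still under the fold threshold. Against IL-4 it was 5.65-fold higher with IL-6 (adjusted p = 0.000156). Within libraries the ratio of Clec4d to Clec4e was 44.5 to 74.2 in control, 34.8 to 68.2 under IL-4 and 2.84 to 4.46 under IL-6.

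Neutrophils and monocytes also express Mincle and MCL. Both cell types had markers called lower with IL-4, but only monocytes had markers called higher with IL-6. Of 8 neutrophil markers, 7 were called lower with IL-4, with summed FPKM of 1110 to 1928 in control and 418 to 534 with IL-4. None of the 8 was called with IL-6 (1530 to 2222) by limma or voom, and 1 had an unadjusted p under 0.05. Of 2 monocyte markers, 1 was called lower with IL-4 (sums of 15.02 to 19.01 in control and 5.39 to 10.96 with IL-4) and 2 higher with IL-6 (82.1 to 89.5). Of the 7 Mϕ markers, 3 were called lower with IL-4 (2810 to 2822 in control and 1366 to 1636 with IL-4) and none was called with IL-6 by limma or voom (2219 to 2312, with 3 at an unadjusted p under 0.05). Of all tested genes, 8.89% were called lower with IL-4, and 3.49% higher and 1.89% lower with IL-6. No gene of these lists was at 0 in all libraries, and their part in the results was not tested.

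DCIR and MICL, the members that carry an ITIM, had values of opposite sign with IL-4. Clec4a2 (DCIR, ENSMUSG00000030148.15, chr6:123106428-123143999, plus strand) had 48.1, 52.4 and 47.1 FPKM in control, 78.1, 89.2 and 129 under IL-4, and 51.2, 48.2 and 55.3 under IL-6. All IL-4 libraries lay above the rest, with IL-4 #3 highest, and the control and IL-6 libraries overlapped. With IL-4 its mean was 2.01-fold higher, but at 0.97 the log2 fold change (standard error 0.182, adjusted p = 0.00596) was just under the threshold. It passed at 1.02, 1.13 and 1.03 without Control #2, IL-4 #1 and IL-4 #2, and at 1.17 once each library was rescaled by its median ratio. Without IL-4 #3 it was lower, at 0.76 (adjusted p = 0.000718), and a term for the set gave 0.67, which passed neither threshold (adjusted p = 0.103). For IL-6 the log2 fold change was 0.07 (95% interval −0.35 to 0.48, adjusted p = 0.871). IL-6 against IL-4 gave −0.91 (adjusted p = 0.00617), with −1.11 after rescaling, −1.06 without IL-4 #1 and −1.06 with the set in the fit, all past the threshold. Without IL-4 #3 that value was −0.70 (adjusted p = 0.00091). Of the 50-base stretches of Clec4a2, 6.83% occur in other genes, chiefly Clec4a4 and Clec4b1.

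Clec12a (MICL, a receptor for uric acid crystals, ENSMUSG00000053063.11, chr6:129342691-129365303, plus strand) had 43.3, 55.2 and 51.2 FPKM in control, 14.98, 14.92 and 24.6 under IL-4, and 27.6, 28.9 and 27.7 under IL-6. The controls were highest, the IL-4 libraries lowest and the IL-6 libraries intermediate, without overlap. It was 2.75-fold lower with IL-4 (log2 fold change −1.49, standard error 0.201, adjusted p = 0.00119). Without IL-4 #3 that value was −1.72 (adjusted p = 1.84e-05). For IL-6 the log2 fold change was −0.82 (adjusted p = 0.0434), under the fold threshold, as was the difference of 0.67 between the cytokines (adjusted p = 0.0344). Neither was called in any of the 9 fits that left out 1 library, where they were −0.92 to −0.74 and 0.55 to 0.91. Over all alternatives the lowest IL-6 value was −1.17. The eosinophil markers Prg2 and Epx were also highest in the controls by mean, while Siglecf, of the same list, was highest with IL-4. Their values are given with the other markers below, and their part in the result was not tested.

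Clec4a1 (ENSMUSG00000049037.8, chr6:122921848-122934619, plus strand) belongs to the same subfamily as DCIR, and their coding sequences were identical at 75.18% of 701 aligned bases. With IL-4 it fell, while Clec4a2 had a value above 0. Its FPKM were 190.4, 186 and 173 in control, 94.9, 67.3 and 59.2 under IL-4, and 262, 248 and 276 under IL-6. The 3 conditions did not overlap. Clec4a1 was 2.48-fold lower with IL-4 (log2 fold change −1.34, standard error 0.173, adjusted p = 0.000905), and −0.95 where the set was a term, which is under the fold threshold (adjusted p = 0.00893). Its log2 fold change with IL-6 was 0.52 (95% interval 0.12 to 0.91, adjusted p = 0.122), and 1.10 where the set was a term (adjusted p = 0.0488). Without IL-4 #3 the 0.52 had an adjusted p of 0.0234, still under the fold threshold. IL-6 against IL-4 gave 1.85 (adjusted p = 0.000115).

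Within the set of libraries that holds all controls, IL-4 #1 alone could be compared with the control mean. Its Mgl2 was 71.2-fold higher, its Mrc1 4.12-fold and its Clec7a 2.22-fold. Its Clec4n was 9.50-fold lower, its Clec4d 6.09-fold, its Clec4e 3.56-fold, its Clec12a 3.33-fold and its Clec4a1 1.93-fold. In the other set, the IL-6 mean was compared with the mean of IL-4 #2 and #3. Clec4e was 68.8-fold, Clec4n 24.7-fold, Clec4d 4.95-fold and Clec4a1 4.14-fold higher with IL-6. Mgl2 was 199-fold, Clec10a 4.43-fold and Clec7a 3.65-fold lower. These have the direction of the values over all libraries. No set holds both IL-6 and control libraries.

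The Clec4 cluster spans 368 kb of chromosome 6 (chr6:122921848-123289870) and holds 9 lectin genes, of which 5 are members and 4 lie between them. Neighbouring genes had values of either sign. Along the chromosome, the log2 fold changes with IL-4 were −1.34 for Clec4a1, 0.97 for Clec4a2, −3.13 for Clec4n, −2.19 for Clec4d and −1.64 for Clec4e, so that the 3 genes called lower at the far end stand next to each other. Of the 4 genes between, 1 was called with IL-4 and the same gene with IL-6, beside 13.9% and 5.38% of all genes. This was Clec4b1, which had mean FPKM of 77.4 under IL-4, 2.46 under IL-6 and 11.01 in control (log2 fold changes 2.69 and −2.15, adjusted p = 0.00169 and 0.0124). Clec12a and Clec7a lie farther along the same chromosome, within 130.1 kb (chr6:129342691-129472779), with 4 lectin genes between them. Of these 4, 2 were tested, and Clec1b alone was called, higher with IL-6 (3.49% of all genes were called higher against control).

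**Figure D3:**
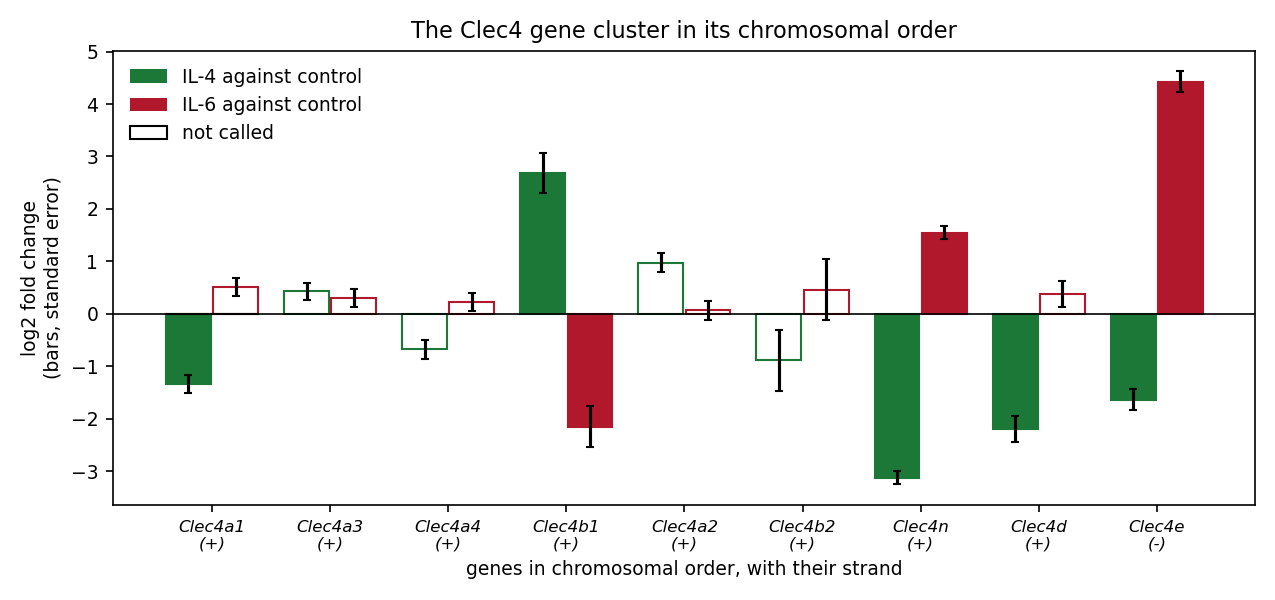
Log2 fold change (y axis) of the 9 genes of the Clec4 cluster in chromosomal order (x axis, strand in brackets), for IL-4 (green) and IL-6 (red) against control, with bars of 1 standard error and filled where called. Clec4n, Clec4d and Clec4e at the right end fall with IL-4, and Clec4b1 in the middle rises with IL-4 (2.69) and falls with IL-6 (−2.15).

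IL-4 acts through STAT6 and IL-6 through STAT3, which bind palindromes of TTC and GAA with a spacer of a few bases. The RefSeq promoters (GRCm38.p6, from 250 bases before to 50 after the start) held 8 of the 10 members, all but Clec10a and Clec4n. They were searched on both strands for TTCNNNGAA, for the same with a spacer of 4 bases, and for the ETS motif GGAAGT, which can overlap the GAA of the others. The form with 4 spacer bases was found in the promoters of Clec7a, in which 2 starts are listed, and Clec4a1. It occurs in 6.95% of 32851 promoters of the same length, and in those of 8.01% of 27025 genes. TTCNNNGAA was found in that of Clec4a2 alone, 42 bases before the start, and occurs in 8.30% of promoters and 9.55% of genes. GGAAGT was found in Mrc1, Mgl2, Clec4d and Clec4a2 and occurs in 23.8% of promoters and 26.5% of genes. Below are the promoters of Mgl2 and Clec4e, the members with the largest response to each cytokine, and those of Clec7a and Clec4a1, with that match in capitals. They run up to the start site, or to the first exonic base of M21 where that comes before it. A match is letters only, and the promoters of Mgl2 and Clec4e hold neither palindrome in this window. Binding was not measured.
Mgl2, chr11:70130107-70130328, plus strand: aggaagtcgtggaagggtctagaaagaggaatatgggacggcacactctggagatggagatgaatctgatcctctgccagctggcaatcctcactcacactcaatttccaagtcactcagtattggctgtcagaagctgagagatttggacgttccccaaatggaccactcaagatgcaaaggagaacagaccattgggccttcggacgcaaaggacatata
Clec4e, chr6:123289872-123290121, minus strand: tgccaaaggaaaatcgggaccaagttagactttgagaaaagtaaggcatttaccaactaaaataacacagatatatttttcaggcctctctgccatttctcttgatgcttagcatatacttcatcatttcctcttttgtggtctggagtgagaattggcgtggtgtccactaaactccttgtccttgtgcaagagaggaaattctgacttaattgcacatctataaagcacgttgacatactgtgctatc
Clec7a, chr6:129472780-129473029, minus strand: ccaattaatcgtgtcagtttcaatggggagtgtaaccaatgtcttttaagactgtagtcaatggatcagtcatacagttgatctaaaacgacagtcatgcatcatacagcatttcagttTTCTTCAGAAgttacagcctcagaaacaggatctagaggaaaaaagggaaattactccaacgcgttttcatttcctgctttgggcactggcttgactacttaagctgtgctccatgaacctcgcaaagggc
Clec4a1, chr6:122921598-122921847, plus strand: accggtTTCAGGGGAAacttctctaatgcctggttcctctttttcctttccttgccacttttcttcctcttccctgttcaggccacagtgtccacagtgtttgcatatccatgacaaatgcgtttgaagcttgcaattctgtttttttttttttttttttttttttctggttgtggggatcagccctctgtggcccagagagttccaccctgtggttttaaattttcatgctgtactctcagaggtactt

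Summed over the 10 receptors, FPKM were 1129 to 1230 in control, 1293 to 1655 under IL-4 and 1635 to 1700.2 under IL-6. All IL-4 and IL-6 libraries lay above all controls, and the ranges of the cytokines overlapped. Mgl2 made up 0.512 to 0.801% of that sum in control, 33.3 to 39.9% under IL-4 and 0.128 to 0.193% under IL-6. Clec4n made up 13.5 to 16.1% in control, 1.13 to 1.65% under IL-4 and 30.1 to 32.0% under IL-6. Receptors that signal through Syk (Clec7a, Clec4d, Clec4e and Clec4n) were set against those with an ITIM (Clec4a2 and Clec12a) as a ratio of summed FPKM within each library. The ratio was 7.58 to 7.80 in control, 6.41, 5.37 and 2.57 in IL-4 #1 to #3, and 13.7 to 15.5 with IL-6. All IL-6 libraries lay above the controls and all IL-4 libraries below them, with IL-4 #3 lowest. Protein was not measured in these data.

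**Figure D4:**
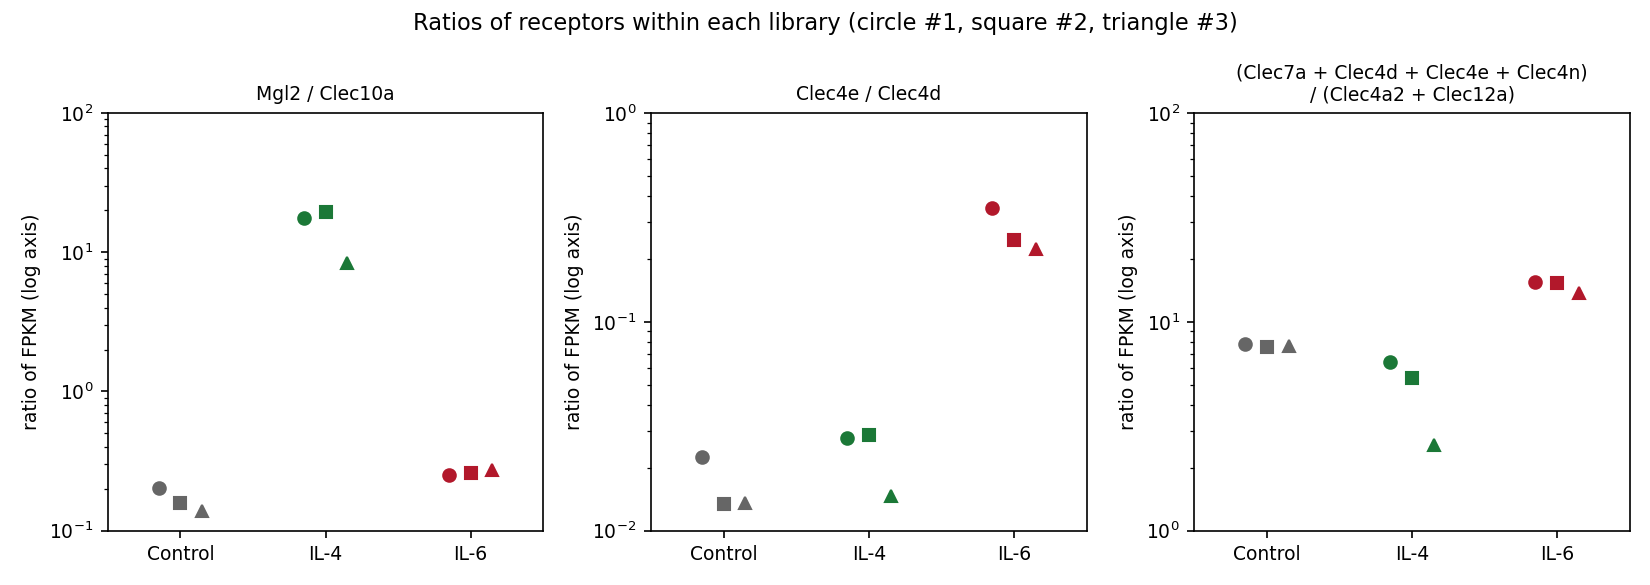
Ratios of FPKM within each library (y axes, log scale) for Mgl2 to Clec10a, Clec4e to Clec4d, and the sum of Clec7a, Clec4d, Clec4e and Clec4n to the sum of Clec4a2 and Clec12a, in control (grey), IL-4 (green) and IL-6 (red) libraries (circle #1, square #2, triangle #3). The IL-4 libraries stand apart in the first panel (8.31 to 19.4) and the IL-6 libraries in the other panels (0.224 to 0.353 and 13.7 to 15.5).

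Other C-type lectin genes were taken from a list of 41, of which 20 passed the filter. With IL-4, 2 were called higher (1 by voom) and 3 lower, with a median log2 fold change of −0.13, beside 5.02% and 8.89% of all genes called. The largest rises were those of Clec4b1 (2.69) and Ly75 (1.38), which encodes the uptake receptor DEC-205, and the falls those of Klra17 (−2.43), Asgr2 (−2.20), an asialoglycoprotein receptor subunit, and Cd93 (−1.34). With IL-6, 3 were called higher and 2 lower, with a median of 0.37, beside 3.49% and 1.89% of all genes. Selp (2.60), which encodes P-selectin, Clec1b (1.88), which encodes the podoplanin receptor CLEC-2, and Clec5a (1.36), which encodes the DAP12-coupled receptor MDL-1, were higher, and Asgr2 (−2.25) and Clec4b1 (−2.15) lower. IL-6 against IL-4 called 7 higher, led by Klra17 (3.00), Selp (2.32) and Clec1b (1.59), and Clec4b1 lower (−4.84), beside 13.6% and 6.82% of all genes.

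The genes that carry the signal of these receptors inward were read against the share of all genes called. Of 14 adaptors and kinases, all tested, 1 was called with IL-4 (13.9% of all genes), namely Vav1 (−1.15), a guanine nucleotide exchange factor, which was lower. None of the 14 was called higher by limma or by voom. At an unadjusted limma p under 0.05, 2 were higher and 8 lower, beside 1628 and 3130 of all 12824 tested genes. The median was −0.65, beside −0.20 over all tested genes. With IL-6, 1 of the 14 was called (5.38% of all genes), Fgr (2.30), a Src family kinase, which was higher, and the median was 0.18. None was called lower by limma or voom. At an unadjusted limma p under 0.05, 4 were higher and 0 lower, beside 1269 and 1461 of all tested genes. IL-6 against IL-4 called 3 higher (13.6% of all genes), Fgr (3.26), Vav1 (1.63) and Plcg2 (1.23), a phospholipase. Fcer1g, Syk and Card9, named for their place in the pathway with their values known, were not called in any comparison. Fcer1g had log2 fold changes of −0.89 with IL-4 (adjusted p = 0.0164) and −0.14 with IL-6 (adjusted p = 0.752). Syk had −0.79 (adjusted p = 0.0609) and 0.10 (adjusted p = 0.857), and Card9 had −0.14 (adjusted p = 0.625) and 0.35 (adjusted p = 0.342).

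Of 6 inhibitors of the pathway, 1 was called higher and 2 lower with IL-4, where 13.9% of all genes were called, and none with IL-6, where 5.38% were. Cblb, a ubiquitin ligase that acts on Dectin receptors and Syk, rose with IL-4 (2.71), and Inpp5d (−1.30), which encodes the phosphatase SHIP1, and Rubcn (−1.16), which encodes the CARD9 inhibitor Rubicon, fell. IL-6 against IL-4 called Inpp5d (1.32) and Rubcn (1.17) higher and Cblb (−2.76) lower. The 0 calls with IL-6 were 0 by voom too, and 0 of the 6 had an unadjusted p under 0.05 in limma.

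**Figure D5:**
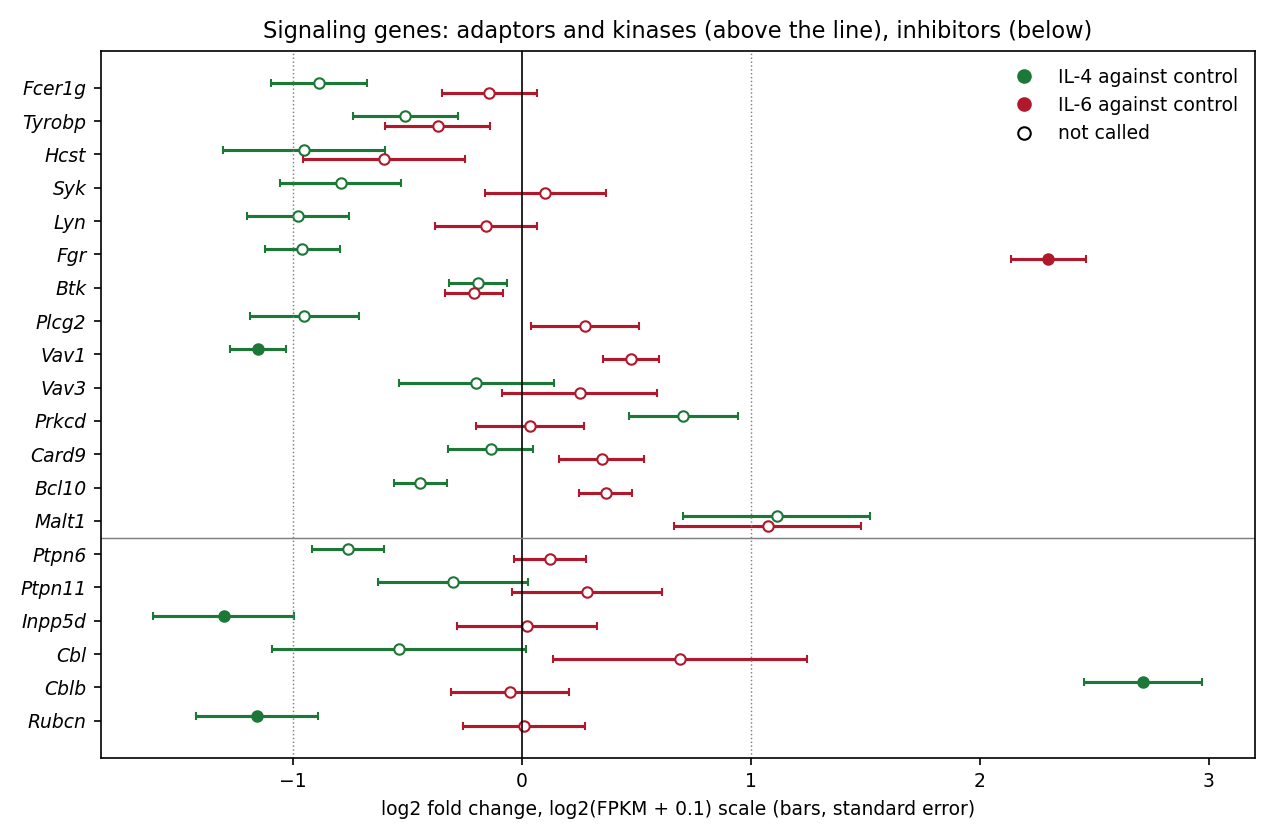
Log2 fold change (x axis, log2(FPKM + 0.1) scale) of 14 adaptors and kinases (above the line) and 6 inhibitors (below) for IL-4 (green) and IL-6 (red) against control, with bars of 1 standard error, filled where called. Filled points are Vav1, Inpp5d and Rubcn to the left and Cblb to the right for IL-4, and Fgr to the right for IL-6.

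Transcripts that these receptors are known to induce, though many other stimuli do so too, were taken from a list of 11, of which 7 passed the filter. With IL-4, Egr2 (2.61) was called higher, and Il10 (−2.04), Il1b (−1.54) and Cxcl2 (−1.20) lower, beside 5.02% and 8.89% of all genes. The median was −1.13, beside −0.20 over all tested genes. With IL-6, 4 were called higher, led by Il1b (4.47), Ptgs2 (3.68) and Cxcl2 (3.57), and Egr2 lower (−1.06), beside 3.49% and 1.89% of all genes. The median was 1.38, beside −0.00 over all tested genes. IL-6 against IL-4 called 6 higher, led by Il1b (6.01), Cxcl2 (4.77) and Ptgs2 (3.21), and Egr2 lower (−3.68), beside 13.6% and 6.82% of all genes.

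Summed eosinophil markers were highest in the control libraries. The sums of 3 such markers were 67.0 to 157 FPKM in control, 15.8 to 21.1 under IL-4 and 17.4 to 26.2 under IL-6. Most of this was Prg2, which encodes eosinophil major basic protein, with mean FPKM of 120.0 in control, 14.5 under IL-4 and 20.9 under IL-6. It was called lower with both cytokines (log2 fold changes −2.95 and −2.44, adjusted p = 0.000408 and 0.00323). Epx and Siglecf, the other markers of the list, had control means of 1.13 and 1.33 FPKM and were not called against control. Siglecf was called lower for IL-6 against IL-4 (−1.32, adjusted p = 0.0168). Of 7 dendritic cell markers, 3 passed the filter, with summed FPKM of all 7 between 2.92 and 8.58. Sums of 3 T cell markers stayed at 0.203 to 1.57, of 3 B cell markers at 8.11 to 20.99 and of 3 erythroid markers at 0.400 to 8.15. The part of all these in the receptor results was not tested.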

How the data were processed

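The authors sequenced polyadenylated RNA of 9 Mϕ libraries (3 per condition) and deposited FPKM per gene. The methods name STAR 2.4.2a, GRCm38, Cufflinks 2.2.1 and GENCODE M5. Of 53379 gene identifiers, 50604 matched GENCODE M21 with their version (94.8%). With M21 exon lengths, 157843 values of up to 2000 fragments came out as whole fragments within 0.05 (100.0%), as a read counter gives, so the program behind the FPKM is not settled. Library totals were read from these steps.

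Groups came from the labels. The members and gene lists were chosen with earlier results of these data known. Genes of the lists that could not be included are not reported here. Named genes are all 10 members, Socs3 and Arg1, and up to 3 called genes of each list in each direction. FPKM were fitted as log2(FPKM + 0.1), a scale that understates changes of low genes, with limma 3.58.1 in R 4.3.3 (3 groups, trend and robust eBayes, Benjamini-Hochberg adjustment over 12824 genes). Folds are ratios of mean FPKM. Tables were made with pandas 2.3.3 and numpy 2.4.6 in Python 3.11.15, plots with matplotlib 3.10.9. The alternatives were other pseudocounts, filters and scalings, a fit of the compared groups alone, the replicate number as a block, the adjusted p alone, the set of libraries as a term, limma voom on whole fragments, and leaving out each library.

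On simulated data for IL-6 against control (11356 genes, 200 changed), the fit recovered 55.5% of changes of 1.5 and 71.1% of changes of 2 (log2), with 4 false calls. The simulated libraries held no division by set, so the 4 false calls do not cover differences between the sets.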

Additional observations from a re-analysis of the deposited data

How the results depend on the processing

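Of 19 member values called over the 3 comparisons, 14 were called in every alternative. With a term for the set, 3 members were called between IL-6 and control in place of 5, all of them higher (Clec4e, Clec4n and Clec4a1), and the log2 fold change of Clec4d for IL-6, not called in either fit, turned to −0.23. That fit rests on IL-4 #1 against IL-4 #2 and #3, and the cause was not tested. With the replicate block the counts stayed at 7, 5 and 7 members for IL-4, IL-6 and IL-6 against IL-4, and no call of a member changed in the paired fit. The libraries share numbers and the study's legends give 3 mice, but no source says that 1 mouse gave all 3 conditions. Deviations of same-numbered libraries from their group means correlated, for #1 to #3, as follows. Control against IL-4 gave r of 0.521, −0.415 and 0.0777. Control against IL-6 gave 0.408, 0.201 and 0.166. IL-4 against IL-6 gave 0.281, −0.0612 and 0.153. In 11 of 18 checks a library correlated best with its own number. Rescaling each library by its median ratio moved the median over all genes for IL-4 from −0.20 to −0.01 and added Clec4a2 to the calls, for 8 members. Limma voom on whole fragments called 7, 5 and 7 members, but for IL-4 it called 1 other lectin in place of 2 higher, and 1 inhibitor in place of 2, 1 Mϕ marker in place of 3, 6 neutrophil markers in place of 7, 4 induced transcripts in place of 3 and 5 intestinal transcripts in place of 1 lower. For IL-6 against IL-4 it called 1 inhibitor and 2 Mϕ markers higher in place of 2 and 3. Each member has 159 fragments or more in every library, and 3 libraries a group limit the precision of the spread.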
